A study of Caenorhabditis elegans with 13 samples.

Results

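The direct comparison of the cec-4 mutant with dpy-27(RNAi) asks where loss of a heterochromatin anchor and a partial loss of the dosage compensation complex (DCC) give different transcript levels, without passing through the wild type control that the study's other comparisons share. Its members are genes whose mean over both groups exceeded 1 FPKM, 16369 of the 46170 genes in the table, of which 13195 are protein-coding. FPKM is the number of sequenced fragments per kilobase of transcript, scaled to the sequencing yield of the library. For each gene the ratio of cec-4 to dpy-27(RNAi) was taken as the log2 ratio of (FPKM + 0.1) and set relative to the median gene, whose own log2 ratio was 0.07. A positive log2 ratio therefore means a higher level in cec-4.

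mRNA-seq was made from whole L1 hermaphrodite larvae of Caenorhabditis elegans. The mutant strain was RB2301, cec-4(ok3124) IV, grown on control vector RNAi (3 libraries), and it is set against wild type N2 worms on dpy-27(RNAi) (4 libraries). Levels are also given for strain EKM99, a chromosome III double mutant of met-2(n4256) and set-25(n5021), on control vector (3 libraries) and for N2 worms given the empty vector, called wild type here (3 libraries). In all groups embryos were released by bleaching gravid adults, hatched overnight and fed OP50 bacteria as larvae for 3 hours. The groups compared differ both in genotype and in the RNAi construct, and these cannot be told apart. cec-4(ok3124) was represented by a single strain. The authors deposited 1 mean per group and gene, so every value here is a group mean with no replicate spread, no test was possible, and the depth behind each mean is unknown from these values. "Higher" and "lower" describe the 2 means only.

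Chromosome-wide dosage compensation in C. elegans hermaphrodites is carried out by the DCC, a condensin-like complex built around the DPY-27 subunit that binds both X chromosomes and lowers their transcription. CEC-4 is a chromodomain protein of the nuclear envelope that holds chromatin carrying methylated lysine 9 of histone H3 at the nuclear periphery. MET-2 and SET-25 are the methyltransferases that place that mark.

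The genes targeted in each group were read first. cec-4 (chromosome IV of WBcel235, 7575718 to 7577326) had 7.02 FPKM in cec-4, against 14.5 in dpy-27(RNAi), with 22.9 in met-2 set-25 and 18.2 in wild type, a log2 ratio of -1.11. The mutant was the lowest of the 4 groups. cec-4 overlaps F32E10.5, and since the libraries kept no strand, reads of overlapping genes cannot be told apart. dpy-27 (chromosome III, 3813018 to 3819679) had 36.4 FPKM in cec-4, against 31.6 in dpy-27(RNAi), with 33.2 in met-2 set-25 and 32.3 in wild type. The mRNA of the RNAi target was thus about as abundant in the group treated against it as in the other 3, and the name dpy-27(RNAi) stands for the group labelled so. Protein is not measured by these values. The paper reports, from a western blot, that DPY-27 protein was significantly reduced in the dpy-27(RNAi) larvae. Markers of the main larval tissues were present in all groups, while the msp genes of sperm and the 5 early embryo markers were at or near 0. Of the 5 hypodermal markers, the moult-cycling collagen genes dpy-7 and rol-6 were near 1 FPKM or less in each group. In whole larvae a smaller share of a tissue and less RNA per cell cannot be told apart. The summed level of 4 body wall muscle markers (myo-3, unc-54, unc-15, mlc-1) was 3676 FPKM in cec-4, against 2780.4 in dpy-27(RNAi), that of 4 intestinal markers was 1214 and 1481, and that of 5 germ cell markers was 28 and 43.2. Most of the intestinal sum is act-5 (931 and 1122 FPKM), and ges-1 lay on the other side with 21.5 and 14.7. Among the germ cell markers nos-2, below 1 FPKM, also lay on the other side, with 0.54 and 0.46. Markers of pharynx, neurons and hypodermis summed to 692, 1107 and 192 FPKM in cec-4, against 783, 904 and 161 in dpy-27(RNAi). These sums are of FPKM as listed, not centred. The wider list of 56 muscle sarcomere and attachment genes had a median log2 ratio of 0.07, with 32 above the median gene and 24 below. Whether differences between tissues had a part in the family values given next was not tested.

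Most genes had nearly the same level in both groups. Of the protein-coding genes, 83.1% lay within 1.5-fold of the median gene. Past 2-fold, 337 protein-coding genes were higher in cec-4, which is 2.55% of those tested, and 239 were lower, which is 1.81%. Past 1.5-fold the counts were 1013 higher (7.68%) and 1222 lower (9.26%). These 4 shares are the background against which each family is read. Higher genes made up 58.5% of the protein-coding genes past 2-fold, and 76.7% when the groups were scaled to equal summed FPKM in place of the median gene, a scaling that moves the median of all genes by 0.17 on the log2 scale. Among 1227 protein-coding genes above 100 FPKM, 20 were higher and 14 lower past 2-fold. Counts of the highest or lowest group use FPKM as listed, not centred. Of all 13195 protein-coding genes, cec-4 was the highest group for 4375, dpy-27(RNAi) for 2301, wild type for 3419 and met-2 set-25 for 3100. cec-4 was the lowest for 2454 and met-2 set-25 for 4037. Such counts in a family are read against these. Over all 16369 genes 1074 were higher (6.56%) and 814 lower (4.97%), and 737 and 575 of these were not protein-coding. The genes that are not protein-coding are short, with a median exon length of 143 bases against 1377 for protein-coding genes. Of the 3174 tested, 711 were listed at 0 in one of the groups. Counts by chromosome that follow are therefore for protein-coding genes unless all genes are named. Family lists were matched by gene name and also hold some pseudogenes, such as nhr-240 and bath-12.

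**Figure D1:**
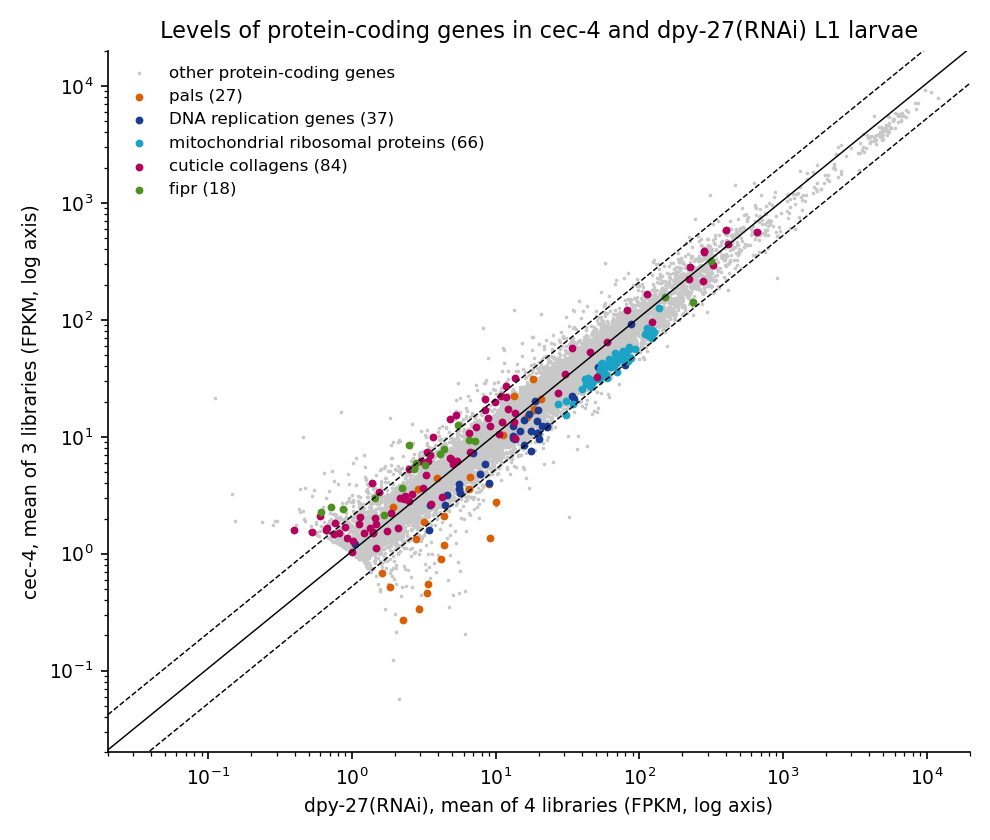
Level of each protein-coding gene in cec-4 (vertical axis, authors' mean of 3 libraries) against dpy-27(RNAi) (horizontal axis, authors' mean of 4), both in FPKM on log axes; 1 point is 1 gene above 0 in both groups, the solid line is the median ratio and the dashed lines are 2-fold to either side. Mitochondrial ribosomal proteins and DNA replication genes form a band under the median line, many pals genes lie under the lower dashed line at levels below 10 FPKM, and cuticle collagens and fipr genes lie mainly above the median line.

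The X chromosome, on which the DCC acts, had nearly the same median as the autosomes when genes of all levels were pooled. Over all genes tested, the medians of 2778 genes on X and 13417 on autosomes differed by 0.0010 on the log2 scale. For protein-coding genes alone the difference was 0.0037, with 38 of 2013 X-linked genes higher in cec-4 past 2-fold and 24 lower. The pooled value hides opposite signs. Protein-coding genes were ranked by mean FPKM and split into classes of 2639. From the lowest class to the highest, the median of X minus that of autosomes was -0.030, -0.047, 0.0024, 0.045 and 0.063. X thus lay slightly below the autosomes among weakly expressed genes and slightly above them among abundant genes. The cause of this trend was not tested. By position the medians were -0.05 in the leftmost 4 Mb of X, 0.00 in the long middle stretch and 0.03 at the right end. The quartiles of X-linked protein-coding genes were -0.22 and 0.18, narrower than the -0.30 and 0.25 of autosomal genes. Chromosome V stood apart in the tails: 139 of its 2755 protein-coding genes (5.05%) were higher in cec-4 past 2-fold and 76 (2.76%) were lower, against at most 2.70% higher and 1.87% lower on any other nuclear chromosome. The median log2 ratio of V was 0.05. In the leftmost 0.25 of the length of V 38 of 542 genes were higher and 14 lower, while in its rightmost 0.25 the counts were 25 higher and 32 lower of 502. All 12 protein-coding genes of the mitochondrial genome were below the median gene, with a median log2 ratio of -0.54.

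**Figure D2:**
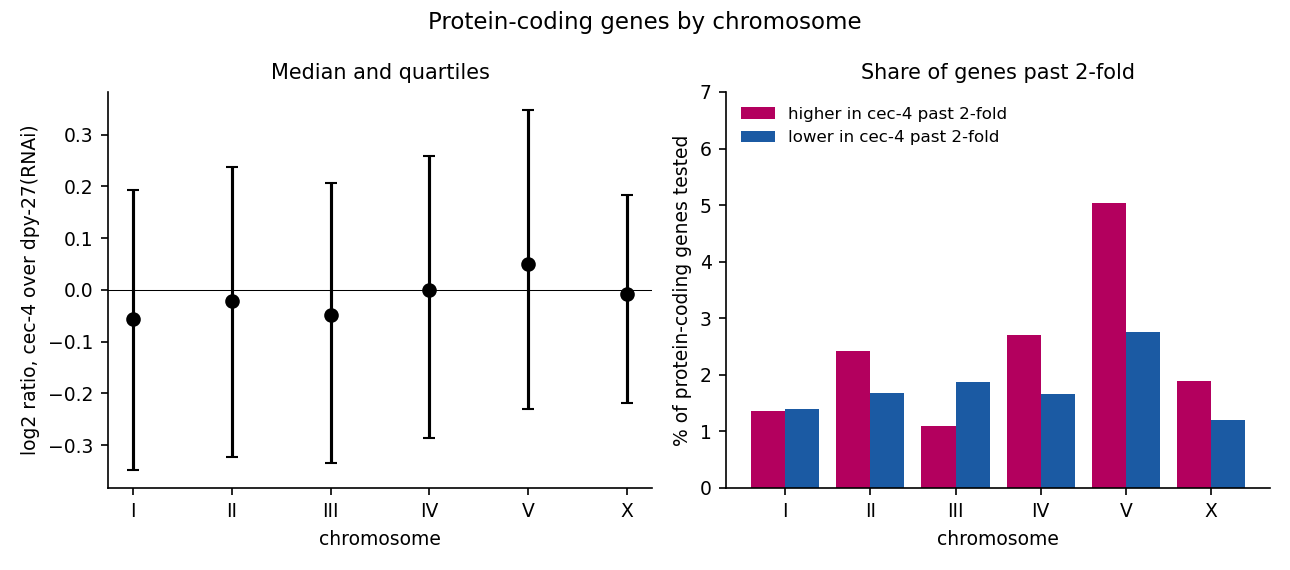
Left, median (point) and quartiles (bars) of the log2 ratio of cec-4 over dpy-27(RNAi) for protein-coding genes of each chromosome; right, the percentage of those genes higher and lower in cec-4 past 2-fold. X has a median close to 0 and shares of 1.89% and 1.19%, and V has the tallest bars on both sides.

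Genes that copy DNA and divide cells were, as groups, lower in cec-4. Of 37 DNA replication genes tested (of 38 in the list), 35 were below the median gene, 20 were lower past 1.5-fold and 5 past 2-fold, and none was higher past 1.5-fold. The median log2 ratio was -0.69, where the median of all protein-coding genes was -0.01. tyms-1, which encodes thymidylate synthase, had 7.59 FPKM in cec-4, against 17.8 in dpy-27(RNAi), with 9.45 in met-2 set-25 and 29.6 in wild type. pcn-1, the sliding clamp PCNA, had 41.1 FPKM in cec-4, against 80.1, 45.1 and 134 in the same order. The order of the groups was the same for both genes, with wild type highest, then dpy-27(RNAi), then met-2 set-25, and cec-4 lowest. The MCM helicase unwinds DNA at the replication fork. Genes listed by the name mcm, which include its subunits, had a median log2 ratio of -0.94. cec-4 had the lowest level of the 4 groups for 7 of 7 of these genes. mcm-7 had 9.59 FPKM in cec-4, against 20 in dpy-27(RNAi) and mcm-5 had 12.1 and 22.8. The primase subunit pri-2 (log2 ratio -1.21) and the origin recognition subunit orc-3 (-1.13) were also lower past 2-fold, while the replication protein A gene rpa-2 was level at 91.3 FPKM in cec-4, against 88.3 in dpy-27(RNAi). Wild type had the highest level for 34 of the 37 genes.

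Of 69 mitosis and cell cycle genes, 18 were lower in cec-4 past 1.5-fold, none was higher, and the median log2 ratio was -0.25. The Aurora B kinase gene air-2 had 2.93 FPKM in cec-4, against 7.49 in dpy-27(RNAi), with 4.08 in met-2 set-25 and 11.9 in wild type. The mitotic kinase gene cdk-1 had 11.8, 24.4, 14.4 and 45.5 FPKM in the same order. The spindle checkpoint gene mdf-2 and the anaphase activator fzy-1 had log2 ratios of -1.11 and -0.99. Not all of the list followed: lin-23, an F-box gene that limits cell division, had 43.3 FPKM in cec-4, against 32.9 in dpy-27(RNAi), a log2 ratio of 0.32.

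Protein synthesis genes lay on the lower side. The 66 nuclear genes for mitochondrial ribosomal proteins were all below the median gene. Their median log2 ratio was -0.68, 53 were lower in cec-4 past 1.5-fold, where the background is 9.26%, and none was higher. Their summed level was 2925 FPKM in cec-4, against 4463 in dpy-27(RNAi), with 3351 in met-2 set-25 and 4108 in wild type. By gene, cec-4 was the lowest of the 4 groups for 57 of them and dpy-27(RNAi) the highest for 56. Over all 13195 protein-coding genes these counts were 2454 and 2301. mrpl-49 had 35.5 FPKM in cec-4, against 70.3 in dpy-27(RNAi), and mrps-21 had 44.7 and 83. The smallest difference was that of mrps-11, with 127 and 138 FPKM.

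Ribosome assembly genes were lower as well. Of 32 tested, 30 were below the median gene and 17 were lower in cec-4 past 1.5-fold, with a median log2 ratio of -0.60. fib-1, the nucleolar methyltransferase fibrillarin, had 718 FPKM in cec-4, against 1309.5 in dpy-27(RNAi), with 956 in met-2 set-25 and 1199 in wild type. nol-58, a core protein of the particles that guide modification of ribosomal RNA, had 277 and 464 FPKM in cec-4 and dpy-27(RNAi). Translation factors had a median log2 ratio of -0.55 over 29 genes. Within a pair of elongation factor 1A genes, eef-1A.2 had 1921 FPKM in cec-4, against 3399 in dpy-27(RNAi), a log2 ratio of -0.89, and the more abundant eef-1A.1 had 9249 and 9718, a log2 ratio of -0.14. The elongation factor 2 gene eef-2 was level at 3865 and 3592 FPKM. All 81 cytosolic ribosomal proteins tested were below the median gene but by less, with a median log2 ratio of -0.34 and 1 gene past 1.5-fold, rpl-11.1 at 82.6 FPKM in cec-4, against 151 in dpy-27(RNAi). Centred on genes of like abundance, by a running median over ranked FPKM, the list median was -0.08. These transcripts are so abundant that their summed level was 331380 FPKM in cec-4, against 400870 in dpy-27(RNAi), out of 1129100 and 1209200 over all genes.

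RNA processing genes were lower in cec-4 as well. The 7 snr genes, which encode the Sm proteins of spliceosomal particles, were each lower past 1.5-fold, with log2 ratios from -0.92 (snr-1) to -0.64 (snr-4). snr-1 had 72.9 FPKM in cec-4, against 131 in dpy-27(RNAi), with 82.4 in met-2 set-25 and 147 in wild type, so both mutant strains sat together beneath the N2 groups. The 8 subunits of the RNA exosome, the nuclease that trims and destroys RNA from its 3′ end, were all below the median gene, 6 of them past 1.5-fold. dpy-27(RNAi) had the highest of the 4 levels for 8 of 8, as with exos-8 at 27.4 FPKM in cec-4, against 46.9 in dpy-27(RNAi), with 33.7 in met-2 set-25 and 41.5 in wild type. Of 11 subunits of RNA polymerase II named rpb, 8 were lower past 1.5-fold, and the median of 49 splicing factors was -0.39.

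Energy and protein turnover genes showed smaller differences of the same sign. Of 50 respiratory chain and ATP synthase genes 49 were below the median gene, 8 of them past 1.5-fold, with a median log2 ratio of -0.43. The assembly factors cox-11 and cox-17, which bring copper to cytochrome c oxidase, had 13.9 and 43 FPKM in cec-4, against 24.2 and 71.6 in dpy-27(RNAi). Of 30 proteasome subunits all were below the median gene, 3 of them past 1.5-fold, and their order across groups was different: wild type was highest and met-2 set-25 lowest for 30 of 30. pas-5, a subunit of the core particle, had 71.5 FPKM in cec-4, against 105 in dpy-27(RNAi), with 67.9 in met-2 set-25 and 138 in wild type. The proton pump of acidic organelles had no subunit past 1.5-fold among 21.

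**Figure D3:**
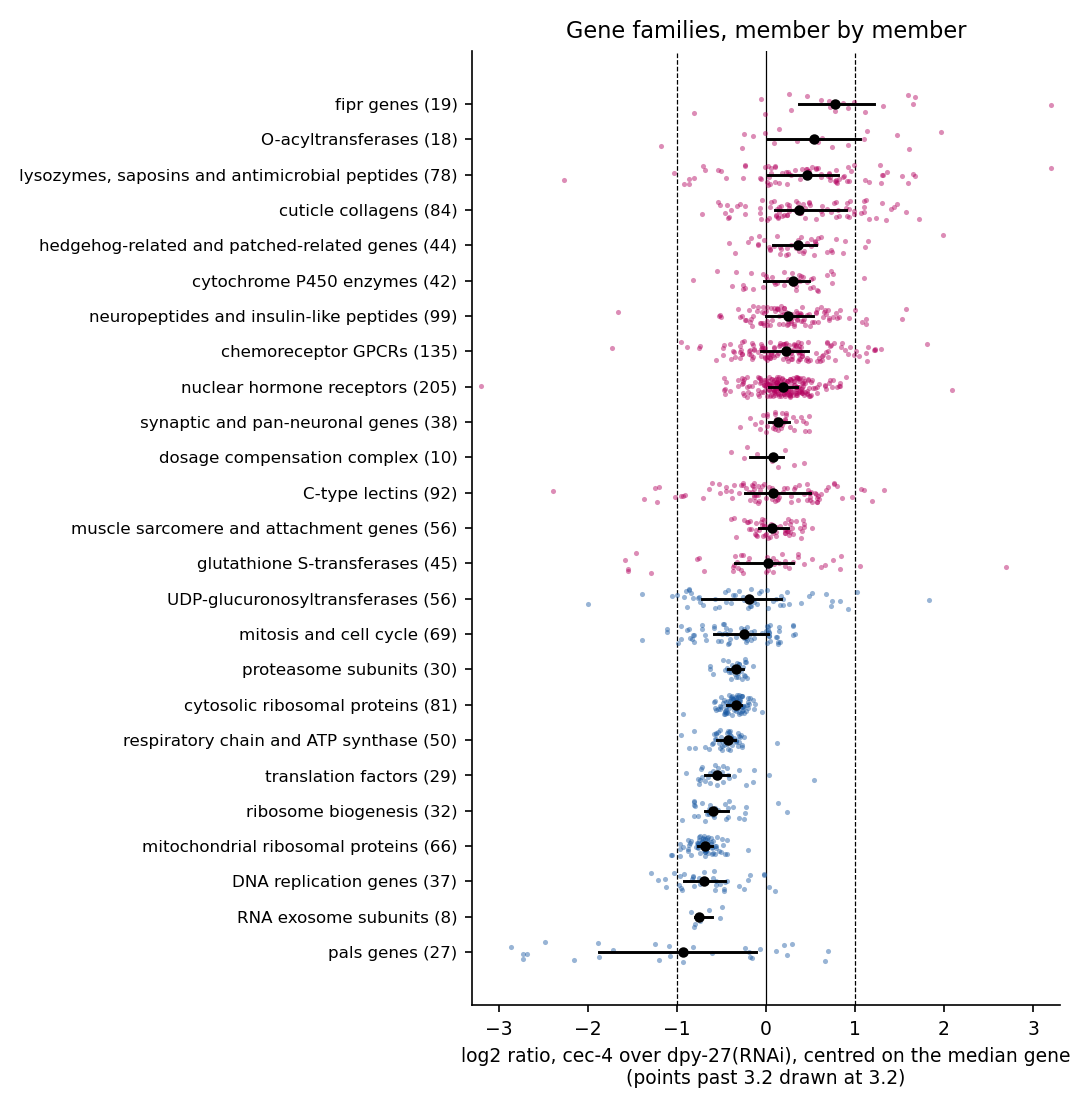
Log2 ratio of cec-4 over dpy-27(RNAi), relative to the median gene, for each member (coloured points) of 25 families, with the number of members tested in parentheses; black points are medians, black bars the quartiles, dashed lines mark 2-fold, and points beyond the axis are drawn at its edge. Ribosomal, replication and RNA processing families lie almost wholly to the left of 0 with narrow spreads, and the families with medians above 0 are broader.

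The pals genes had more members lower past 2-fold than any other list, and these were part of the family. pals genes are a C. elegans family with an ALS2CR12 domain, many of which are switched on by microsporidia and the Orsay virus as part of the intracellular pathogen response. The names come from the current annotation, and the family was added after values had been seen. The table lists 37 pals genes, of which 27 were tested. Of these 13 were lower in cec-4 past 2-fold and none higher, where the background is 1.81% and 2.55%, and the median log2 ratio was -0.93. Of those 13, 7 were above 1 FPKM in dpy-27(RNAi) only and so passed the filter through the group where they were high. With both groups required to be above 1 FPKM the median was -0.21, and with a mean above 5 FPKM it was -0.18. pals-5, whose promoter is a standard reporter of the response, had 0.337 FPKM in cec-4, against 2.93 in dpy-27(RNAi), with 1.98 in met-2 set-25 and 0.542 in wild type. pals-14 had 1.35, 9.11, 5.48 and 1.92 FPKM in the same order. For these genes cec-4 and wild type were low together and dpy-27(RNAi) was highest, with met-2 set-25 between. Over the family dpy-27(RNAi) was the highest group for 17 of 27.

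Of the 13 lower pals genes 7 belong to a run of 8 neighbours. C17H1.2 and the genes pals-2, pals-3, pals-4, pals-11, pals-5, pals-6 and pals-14 lie next to each other among the genes tested on chromosome I of WBcel235, from 13085106 to 13141898, and all 8 were lower in cec-4 past 2-fold, with log2 ratios from -3.88 to -1.72. Their levels in cec-4 were between 0.0574 and 1.35 FPKM, against 1.84 to 9.11 FPKM in dpy-27(RNAi), so all of them are weakly expressed. pals-3 and pals-4 overlap, the libraries kept no strand, and reads shared between close relatives were split by the authors' software, so the values of single pals genes are uncertain. pals-22 and pals-25 on chromosome III, which act against each other as regulators of the response, were nearly level: pals-22 had 14.7 FPKM in cec-4, against 16.5 in dpy-27(RNAi), and pals-25 had 10.4 and 11.2. pals-23, next to them, lay on the other side with 31.5 and 18.4 FPKM.

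Other genes of the same response were split. A run of 4 neighbours on chromosome V, F26F2.1, F26F2.13, F26F2.3 and F26F2.4 (20559162 to 20569996), was lower in cec-4 past 2-fold. F26F2.4 had 0.977 FPKM in cec-4, against 4.8 in dpy-27(RNAi), with 2.1 in met-2 set-25 and 0.988 in wild type. sdz-6 had 0.357 FPKM in cec-4, against 2.87 in dpy-27(RNAi), a log2 ratio of -2.77. eol-1 (T26F2.3), a gene of the response chosen after values had been seen, whose product resembles the RNA decapping enzyme DXO, had 12.2 FPKM in cec-4, against 25.8 in dpy-27(RNAi). skr-5 and cul-6, which encode subunits of a ubiquitin ligase of the response, were close to level: skr-5 had 5.47 and 5.6 FPKM, and cul-6 had 14.1 and 11.7. skr-3, the most abundant of this list of 4 genes, had 206 and 190.3, and skr-4 had 6.6 and 7.83.

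**Figure D4:**
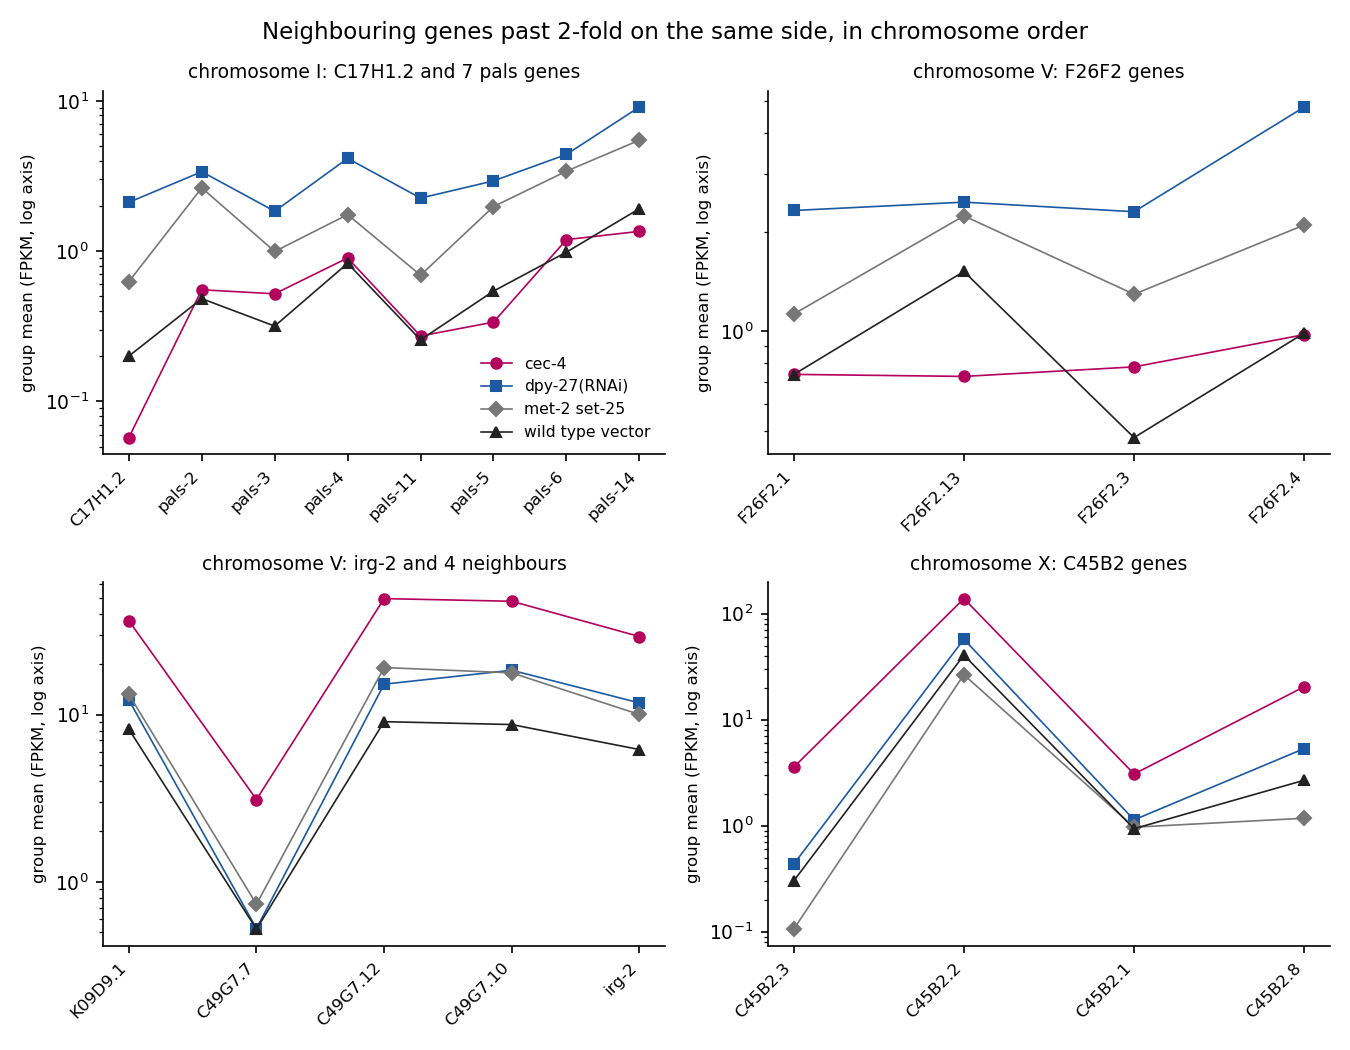
Group means (FPKM, log axis) of 4 runs of neighbouring genes that were past 2-fold on the same side, in chromosome order; lines join genes of 1 group only to guide the eye. In the pals and F26F2 runs dpy-27(RNAi) is the highest group at each gene, and in the irg-2 and C45B2 runs cec-4 is the highest at each gene.

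A few lower genes were abundant. cpr-5, a cathepsin B-like gut protease gene, had 229 FPKM in cec-4, against 911 in dpy-27(RNAi), with 446 in met-2 set-25 and 519 in wild type. It had the lowest log2 ratio among genes above 100 FPKM (-2.06), and the relative cpr-8 followed at lower levels, with 8.35 FPKM in cec-4, against 43.3 in dpy-27(RNAi). cpr-1, among the most abundant of the family, lay on the other side with 1874 and 1314 FPKM. smo-1, the SUMO modifier, had 137 FPKM in cec-4, against 274 in dpy-27(RNAi), with 195 in met-2 set-25 and 365 in wild type. The claudin-like gene clc-11 had the lowest log2 ratio above 10 FPKM: 2.06 FPKM in cec-4, against 32.7 in dpy-27(RNAi), with 23.3 in met-2 set-25 and 64.1 in wild type. Here cec-4 alone was low, and wild type had the highest mean. The nuclear hormone receptor gene nhr-74 was also lowest in cec-4, but there dpy-27(RNAi) was highest. It had 0.458 FPKM in cec-4, against 5.57, 1.76 and 2.27 in dpy-27(RNAi), met-2 set-25 and wild type.

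Detoxification genes were mixed. Of 45 glutathione S-transferase genes, which encode enzymes that couple toxins to glutathione, 5 were lower in cec-4 past 2-fold and 2 higher. gst-4, a widely used reporter of the oxidative stress factor SKN-1, had 21.9 FPKM in cec-4, against 61.4 in dpy-27(RNAi), with 25.8 in met-2 set-25 and 20.5 in wild type. Here dpy-27(RNAi) alone was high. gst-4 and gsto-1 overlap other tested genes. gst-24 had 60.1 FPKM in cec-4, against 157 in dpy-27(RNAi), gsto-1 had 46.2 and 108, and gst-41 had the opposite order with 4.94 and 0.644. gcs-1, another SKN-1 target that makes glutathione, was level at 34.2 and 34.7 FPKM. Over the list of 20 SKN-1 targets tested 1 was lower past 2-fold, none was higher, and the median log2 ratio was -0.22. Of 56 UDP-glucuronosyltransferase genes 4 were lower past 2-fold and 2 higher, with ugt-63 at 1.56 FPKM in cec-4, against 6.23 in dpy-27(RNAi), and ugt-29 at 42.8 and 11.4. The flavin monooxygenase gene fmo-2 had 110.4 FPKM in cec-4, against 236 in dpy-27(RNAi), with 146 in met-2 set-25 and 74 in wild type.

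There were 3 more runs of neighbours lower past 2-fold. F58G6.9 (chca-1), F58G6.3 and F58G6.7 on chromosome IV (9651394 to 9655588) had 28.3, 16.3 and 16.6 FPKM in cec-4, against 72.6, 51 and 48.4 in dpy-27(RNAi). B0507.7, ddn-1 and B0507.8 on chromosome V (8757312 to 8762961) had log2 ratios of -1.56, -2.29 and -2.09. The 4 T28A8 genes on chromosome III (13499199 to 13505536) had a different pattern over the groups: T28A8.5 had 4.92 FPKM in cec-4, against 10.4 in dpy-27(RNAi), with 82.7 in met-2 set-25 and 10.4 in wild type. The methyltransferase double mutant was by far the highest there and cec-4 the lowest.

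Germline genes leaned to the lower side by a smaller amount. Of 70 tested, 10 were lower in cec-4 past 1.5-fold and 1 was higher, with a median log2 ratio of -0.25. prg-1, the Piwi Argonaute, had 12.7 FPKM in cec-4, against 24.4 in dpy-27(RNAi), with 137 in met-2 set-25 and 14.3 in wild type. pgl-1, a P granule component, had 4.55, 7.51, 25 and 3.45 FPKM in the same order. met-2 set-25 was the highest group for 35 of the 70, against 3100 of all 13195 protein-coding genes. him-5, which promotes crossing over on X in meiosis, was the 1 higher gene, with 12.3 FPKM in cec-4, against 4.25 in dpy-27(RNAi).

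**Figure D5:**
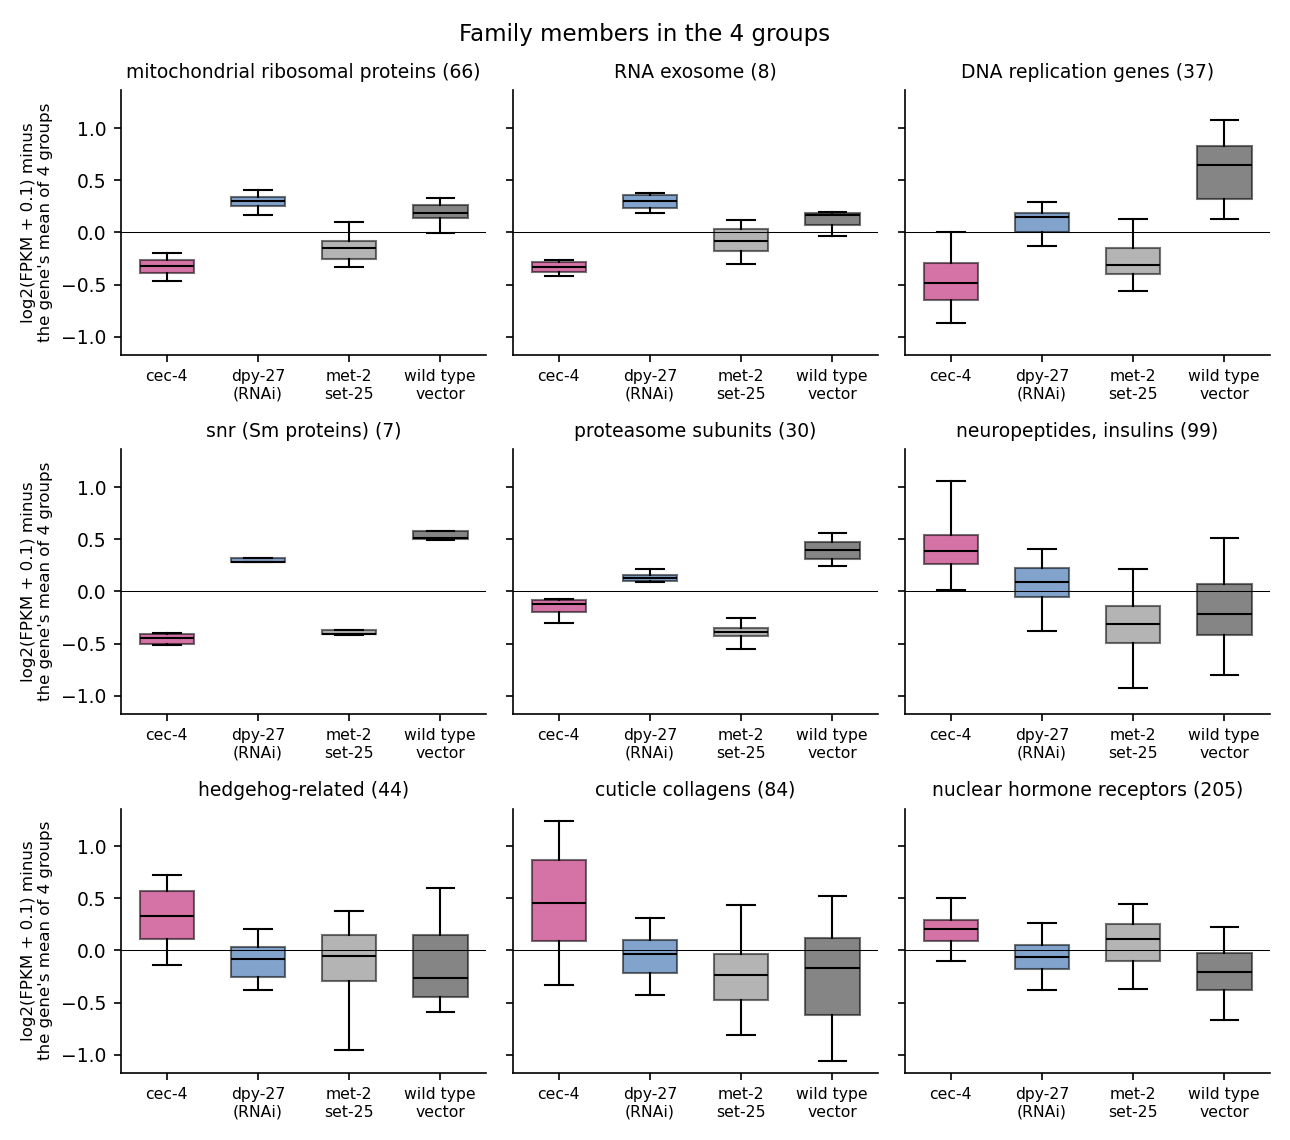
Levels of the members of 9 families in the 4 groups, as log2(FPKM + 0.1) minus the gene's own mean over the groups; boxes span the quartiles, lines inside are medians, whiskers reach the 5 and 95 percentiles, and the number of genes stands in each title. In the growth families cec-4 lies under dpy-27(RNAi), with met-2 set-25 between them or at the bottom, while in the neuropeptide, hedgehog-related, collagen and nuclear receptor families cec-4 has the highest median.

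On the higher side cuticle collagens had the most members past 2-fold of the families described. They are secreted by the hypodermis and build the exoskeleton anew at each moult. Of 84 tested (of 178 in the list), 14 were higher in cec-4 past 2-fold and none lower, and past 1.5-fold 32 were higher and 1 lower, with a median log2 ratio of 0.37. cec-4 was the highest group for 54 of the 84, against 4375 of all 13195 protein-coding genes. col-113, which overlaps another tested gene, had 15.3 FPKM in cec-4, against 5.31 in dpy-27(RNAi), with 4.5 in met-2 set-25 and 3.44 in wild type. col-109 had 14.2, 4.82, 2.63 and 2.84 FPKM in the same order. The collagens with the largest ratios were weakly expressed, and their abundant relatives differed less, and the summed level of the list was 4505 FPKM in cec-4, against 3962 in dpy-27(RNAi). col-168 was the 1 lower gene, at 32.5 and 51.1 FPKM.

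Hedgehog-related genes and their patched-related partners, which in nematodes act in the epidermis and its secreted matrix, showed the same side. Of 44 tested 36 were above the median gene, 10 were higher in cec-4 past 1.5-fold and none lower, and the median log2 ratio was 0.37. grl-21 had 63.7 FPKM in cec-4, against 15.2 in dpy-27(RNAi), with 5.96 in met-2 set-25 and 8.79 in wild type. ptr-3 and ptr-8 had 20.2 and 39.2 FPKM in cec-4, against 8.62 and 20.5 in dpy-27(RNAi). A pair of abundant members, grd-10 and grd-13, lay on the lower side and were far higher in wild type: grd-10 had 62.9 FPKM in cec-4, against 79.7 in dpy-27(RNAi), with 43.7 in met-2 set-25 and 276 in wild type. Of 21 astacin metalloprotease genes, some of which act on the cuticle, 5 were higher past 2-fold and 1, nas-28, was lower. nas-6 had 11 FPKM in cec-4, against 3.95 in dpy-27(RNAi), and nas-28 had 1.56 and 5.23. By contrast, 27 moulting and apical matrix genes had a median log2 ratio of 0.03.

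By number, more secreted antimicrobial genes were higher than lower in cec-4. In the list of 78 lysozymes, saposins and antimicrobial peptides 12 were higher past 2-fold and 2 lower, and past 1.5-fold 33 were higher and 8 lower, with a median log2 ratio of 0.46. The abundant members did not share this: the summed level of the list was 14115 FPKM in cec-4, against 14750 in dpy-27(RNAi), and the saposin-like gene spp-14 had 5711 and 6423. The fipr genes, short peptides related to those that fungal infection induces, had 13 of 19 members higher past 1.5-fold and 1 lower, while their summed level was 708 FPKM in cec-4, against 748 in dpy-27(RNAi). Of the 6 fipr genes higher past 2-fold, 4 were above 1 FPKM in cec-4 only. fipr-26 had 8.43 FPKM in cec-4, against 2.49 in dpy-27(RNAi), with 1.35 in met-2 set-25 and 2.42 in wild type. nlp-28, an antifungal peptide of the epidermis, had 131, 43.4, 72.8 and 38.4 FPKM in the same order. fipr-16 was listed at 0 in the other 3 groups and had 4.83 FPKM in cec-4. Lysozyme genes lay on both sides: lys-7 had 107 FPKM in cec-4, against 54.1 in dpy-27(RNAi), while lys-5 had 3.67 FPKM in cec-4, against 17.1 in dpy-27(RNAi), with 12.9 in met-2 set-25 and 16.2 in wild type, and ilys-5 had 383, 746, 211 and 878. fipr and related peptide genes are small and alike, so reads may have been split between them.

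The irg genes, named for induction by bacterial infection, were all 7 above the median gene, with 2 higher past 2-fold. irg-1 had 29 FPKM in cec-4, against 9.81 in dpy-27(RNAi), with 7.74 in met-2 set-25 and 10.1 in wild type. irg-2 closes a run of 5 neighbours on chromosome V (4025047 to 4043601) that were all higher past 2-fold: K09D9.1, C49G7.7, C49G7.12, C49G7.10 and irg-2. C49G7.12 had 49.4 FPKM in cec-4, against 15.2 in dpy-27(RNAi), with 19.1 in met-2 set-25 and 9.07 in wild type, and cec-4 was the highest and wild type the lowest group for all 5. sysm-1 (T24B8.5), a reporter gene of the p38 immune pathway, had 57 FPKM in cec-4, against 11.3 in dpy-27(RNAi), with 3.41 in met-2 set-25 and 3.76 in wild type. irg-5 (F35E12.5), another p38 target, had 90.8 and 57.6 FPKM in cec-4 and dpy-27(RNAi). For sysm-1 and the 5 neighbours both cec-4 and dpy-27(RNAi) exceeded wild type, cec-4 by more. In the list of 19 CUB-like and infection response genes, 2 were higher past 2-fold and 3 lower, so the lean did not extend to all immune genes. C-type lectins, secreted sugar-binding proteins, were split with 4 higher and 6 lower of 92: clec-41 had 103 FPKM in cec-4, against 39.3 in dpy-27(RNAi), and clec-5 had 19.9 and 49.2.

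Signalling and sensory genes of neurons were modestly higher in cec-4. Of 99 neuropeptide and insulin-like peptide genes 21 were higher past 1.5-fold and 1 was lower, the median log2 ratio was 0.25, and cec-4 was the highest group for 71. flp-20 had 222 FPKM in cec-4, against 97.3 in dpy-27(RNAi), with 61.5 in met-2 set-25 and 159 in wild type. ins-11, an insulin-like peptide, had 20.8, 6.61, 4.44 and 2.98 FPKM in the same order. ins-21 was the 1 lower gene, with 2.13 FPKM in cec-4, against 6.62 in dpy-27(RNAi). Of 135 chemoreceptor genes tested, out of 1646 in the table, 30 were higher past 1.5-fold and 5 lower. srw-86 had 67.7 FPKM in cec-4, against 27.6 in dpy-27(RNAi), with 63.9 in met-2 set-25 and 62.2 in wild type, so that dpy-27(RNAi) was the group apart. The TRPV channel gene ocr-1 showed the same with a wider gap: 16.3 FPKM in cec-4, against 0.843 in dpy-27(RNAi), with 27.7 in met-2 set-25 and 10.9 in wild type. ocr-1 overlaps other tested genes, and reads from them cannot be told apart here. The machinery shared by all neurons differed less: of 38 synaptic and pan-neuronal genes none was past 1.5-fold, with a median log2 ratio of 0.14.

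Nuclear hormone receptors, a large family of ligand-controlled transcription factors in worms, showed a shallow lean across many members. Of 205 tested 163 were above the median gene and 42 below, 14 were higher in cec-4 past 1.5-fold and 1 lower, and the median log2 ratio was 0.19. nhr-282 had 2.29 FPKM in cec-4, against 0.433 in dpy-27(RNAi), and nhr-5 had 19.6 and 9.97. cec-4 was the highest group for 106 of the 205 and met-2 set-25 for 67, against 4375 and 3100 of all 13195 protein-coding genes.

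Metabolic and stress genes on the higher side were fewer. Of 47 targets and members of the insulin pathway 5 were higher past 2-fold and 1 lower. This list shares insulin-like peptide genes with the neuropeptide list, and its 1 lower gene is again ins-21. Its median log2 ratio was 0.14, and 0.01 with a mean above 5 FPKM. mtl-1, a metallothionein, had 40.8 FPKM in cec-4, against 17.8 in dpy-27(RNAi), with 21.6 in met-2 set-25 and 17 in wild type. sod-3, a mitochondrial superoxide dismutase and target of DAF-16, had 4.18, 1.6, 0.896 and 3.51 FPKM in the same order (it overlaps another gene), while the main mitochondrial enzyme sod-2 had 45.2 in cec-4, against 62.8 in dpy-27(RNAi). gpx-3, an X-linked glutathione peroxidase gene, had 204, 67.9, 38.8 and 78.6 FPKM in the order of groups used for mtl-1. The 3 pud genes tested, named for proteins abundant in daf-2 mutants, were higher in cec-4 than in dpy-27(RNAi) and far beneath wild type: pud-3 had 71.1 FPKM in cec-4, against 18.3 in dpy-27(RNAi), with 4.13 in met-2 set-25 and 634 in wild type. Fatty acid binding and vitellogenin genes were split, with 3 higher and 1 lower past 2-fold of 17 tested and 11 of the 17 below the median gene, and their median log2 ratio of -0.11 changed sign when groups were scaled to equal summed FPKM. They included lbp-3 at 47.9 and 107 FPKM, lbp-1 at 327 and 127 FPKM and far-3, which overlaps far-5, at 69.8 and 29.3 in cec-4 and dpy-27(RNAi), while the most abundant member far-1 was level at 3784 and 3853. Of 42 cytochrome P450 genes 6 were higher past 1.5-fold and 1 lower, and of 18 O-acyltransferase genes 8 were higher and 1 lower. oac-6 and oac-7 on chromosome V had 5.66 and 12 FPKM in cec-4, against 1.7 and 4.04 in dpy-27(RNAi).

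The genes with the highest ratios were mostly known by sequence name alone. R07B7.12 (chromosome V) had 21.4 FPKM in cec-4, against 0.112 in dpy-27(RNAi), with 8.63 in met-2 set-25 and 0.115 in wild type, a log2 ratio of 6.59. Both N2 groups were close to 0 and the mutant strains were not. F55G11.4 had 85.8, 8.19, 3.49 and 4.18 FPKM in the same order, C50F7.5 had 309, 58, 32.5 and 12.1, and Y54G2A.28 had 9.91, 0.455, 1.05 and 0.111. All 3 lie on chromosome IV, which also carries the cec-4(ok3124) allele, and cec-4 was the highest group for each. C50F7.5 starts at 7726719, close to cec-4 on the chromosome, and F55G11.4 and Y54G2A.28 start at 12973624 and 3009461, far from it. Whether position on IV had a part in these levels was not tested. On IV as a whole 57 of 2109 protein-coding genes (2.70%) were higher in cec-4 past 2-fold, near the background of 2.55%. The sodium-proton exchanger gene nhx-6 had 14.3 FPKM in cec-4, against 1.84 in dpy-27(RNAi), with 4.97 in met-2 set-25 and 1.74 in wild type. Among genes above 100 FPKM the highest log2 ratios were those of C50F7.5, T26H5.9 (1177 FPKM in cec-4, against 311 in dpy-27(RNAi)) and scl-2 (174 and 54.4). There were 6 protein-coding genes listed at 0 in cec-4, and another 6 were at 0 in dpy-27(RNAi), and no ratio is given for them. M199.8, at 0 in cec-4, had 9.21 FPKM in dpy-27(RNAi), with 1.66 in met-2 set-25 and 2.82 in wild type, and C53B7.6, at 0 in dpy-27(RNAi), had 4.42 in cec-4, against 1.53 in met-2 set-25.

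On X both sides held a few genes far from the median. A run of 4 neighbours, C45B2.3, C45B2.2, C45B2.1 and C45B2.8 (6082960 to 6088412), was higher in cec-4 past 2-fold. C45B2.2 had 139 FPKM in cec-4, against 57.5 in dpy-27(RNAi), with 26.6 in met-2 set-25 and 40.7 in wild type. nspc genes, small nematode-specific peptide genes clustered on X, split into 5 higher past 2-fold and 5 near level. Their median log2 ratio was 0.79, but 0.18 with both groups above 1 FPKM and 0.06 with a mean above 5 FPKM. nspc-14 had 60.2 FPKM in cec-4, against 21.7 in dpy-27(RNAi), with 5 in met-2 set-25 and 68.1 in wild type, so cec-4 was close to wild type there. The P-glycoprotein transporter genes pgp-7 and pgp-13 had 3.41 and 3.01 FPKM in cec-4, against 0.69 and 0.957 in dpy-27(RNAi). Lower in cec-4 on X were F08F1.9 (0.216 and 2.02 FPKM), K02D3.2 (2 and 7.68) and gpx-7 (4.28 and 10.9).

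The proteins at the centre of the comparison differed little at the mRNA level. None of the 10 DCC genes was past 1.5-fold, and their median log2 ratio was 0.08. The largest difference was that of the condensin subunit dpy-28, with 23.5 FPKM in cec-4, against 16.6 in dpy-27(RNAi) and 27.1 in met-2 set-25. dpy-21, the H4K20 demethylase of the complex, had 65.5 FPKM in cec-4, against 50.3 in dpy-27(RNAi), and sdc-2, which brings the complex to X, had 8.6 and 7.82. Of 31 heterochromatin and nuclear envelope genes cec-4 itself was the 1 gene past 2-fold, and 4 were lower past 1.5-fold. emr-1, which encodes emerin, had 51.4 FPKM in cec-4, against 87.8 in dpy-27(RNAi), with 48.1 in met-2 set-25 and 86.5 in wild type. baf-1, a DNA-binding partner of emerin, had 105 and 159 FPKM, lem-2 had 25.4 and 35.5, and met-2 was near level with 18.2 and 15.9. Of 56 muscle sarcomere and attachment genes none was past 1.5-fold.

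Wild type and met-2 set-25 entered neither the choice of members nor the ratio, and they show which of the groups stood apart. On a log2 scale with each group set to its median, wild type lay nearer dpy-27(RNAi) than cec-4 for 9083 of 13195 protein-coding genes. For the 337 genes higher in cec-4 past 2-fold, wild type was nearer dpy-27(RNAi) for 255 and nearer cec-4 for 82. Among the 239 lower genes the split was 142 nearer dpy-27(RNAi) and 97 nearer cec-4, the pals and gst-4 pattern being of the second kind. met-2 set-25 lay nearer dpy-27(RNAi) for 264 of the 337 higher genes and for 130 of the 239 lower ones. Past 1.5-fold it was nearer cec-4 for 688 of the 1222 lower genes (56.3%), close to the 53.6% of all 13195 protein-coding genes, and for 327 of the 1013 higher genes (32.3%). Since cec-4 and dpy-27(RNAi) chose these genes, the counts describe where the other groups fell and are not a test.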

How the data were processed

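RNA of whole L1 larvae was sequenced from non-stranded TruSeq libraries (single-end) by the authors, who trimmed reads with Trim Galore, aligned them with TopHat 2.0.13 and estimated FPKM with Cufflinks 2.2.1. The deposited FPKM table holds 1 group mean per gene from 13 libraries in 4 groups, so no SD, n per value or test could be computed. A second deposited table, from HTSeq 0.6.0 and DESeq2 1.6.3, holds the authors' own log2 fold changes and adjusted p-values and was not used. No per-sample depth enters these values.

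Genes with a mean of cec-4 and dpy-27(RNAi) above 1 FPKM were kept, and log2 ratios with a pseudocount of 0.1 FPKM were centred on the median gene, so the ratio on this scale understates differences of low genes. Filtering on the mean lets a gene pass through the group where it is high. Genes at 0 in one group have levels only. Of 46170 gene IDs 45871 matched Ensembl release 115 (WBcel235) and 299 did not. The ratio step was run on simulated means built from set ratios, with changed genes above 5 FPKM only. That checks the arithmetic and not how replicate noise or low levels act on the ratios. Python 3.11.15, numpy 2.4.6, pandas 2.3.3 and matplotlib 3.10.9 were used. Named genes were the 20 protein-coding genes furthest from the median on each side, the 15 above 10 FPKM and the 10 above 100 FPKM, the 10 on X, up to 4 on each side of each list with its most abundant members, all DCC and heterochromatin genes, and runs of at least 3 neighbours. Others were chosen after their values were seen. Alternatives changed the pseudocount, the filter on low values, the centring, the gene class and the fold threshold. Members and lists were chosen with earlier results of these data known, and 14 lists, drawn up by current symbol or gene class (pals, fipr, MCM, snr, exos, rpb, irg, far, pud and nspc genes among them), after these values had been seen.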

Additional observations from a re-analysis of the deposited data

How the results depend on the processing

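No paired analysis was possible because the table holds 1 mean per group, and for the same reason no replicate could be left out. For genes higher and lower in cec-4 past 2-fold (1074 and 814), no filter on low values gave 1810 and 1792, a mean above 5 FPKM 432 and 280, both columns above 1 FPKM 531 and 351, protein-coding genes only 348 and 231, thresholds of 1.5-fold 2041 and 2026 and of 3-fold 605 and 509. Centring protein-coding genes within sixths of exon length, an alternative chosen after seeing the data, gave 366 and 223. For protein-coding genes (337 and 239), a pseudocount of 1 gave 202 and 153, no filter 586 and 511, a mean above 5 FPKM 176 and 103, scaling to equal summed FPKM 511 and 155, thresholds of 1.5-fold 1013 and 1222 and of 3-fold 91 and 76. Fewer genes are tested under the stricter filters, and the causes of the other shifts were not tested. The difference between the medians of X and autosomes, not split into classes by level, stayed between -0.012 and 0.011. Of 75 list medians under 10 alternatives each, 632 values stayed within 0.1 of the main value and 112 moved by more. A change of sign was counted apart only where the main median was at least 0.1 from 0. There were 6 such changes, all under equal summed FPKM: gut aspartic and cysteine proteases 0.013, fatty acid binding and vitellogenin lipoproteins 0.054, heterochromatin anchoring and H3K9 methylation 0.0042, Argonautes and small RNA pathway genes 0.030, MATH and BTB genes 0.049 and intestinal genes 0.018. Sign changes of smaller medians were not set apart. The median of CUB-like and infection response genes, for example, went from -0.05 to 0.28 with a mean above 5 FPKM. No named gene past 2-fold changed sign, and 75 of 6544 values for named genes moved by over 1.5-fold, 59 of them under a pseudocount of 1 and 16 under 0.01. Depth is unknown from group means, so values near 1 FPKM are the least certain.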

Other observations

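Several families not described so far had values on one side. Transthyretin-related genes, small secreted proteins, had a median log2 ratio of 0.21 over 46 tested, with 9 higher in cec-4 past 1.5-fold and none lower, and ttr-45 had 86.2 FPKM in cec-4, against 35.1 in dpy-27(RNAi). The srlf genes, by current symbol, had a median of 0.52 over 15 tested, with 5 higher past 2-fold and none lower. Cuticlin and zona pellucida genes, which shape the apical matrix, had a median of 0.25 over 22, with 2 higher past 2-fold and none lower. Ligand-gated ion channel genes, which include receptors for acetylcholine and GABA, had a median of 0.09 over 91, with 1 higher past 2-fold and none lower. Nuclear pore genes had a median of -0.43 over 22, with 4 lower in cec-4 past 1.5-fold and none higher, and one-carbon and methionine cycle genes had -0.27 over 21 with 2 lower past 2-fold. F-box A genes were split, with 20 higher and 14 lower past 1.5-fold of 125 tested.

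Neighbouring genes past 2-fold were more often on the same side than on opposite sides: of adjacent tested protein-coding genes that were both past 2-fold, 45 pairs were both higher in cec-4, 34 both lower and 16 opposite. Overlapping genes share reads in libraries without strand, and such pairs were not set apart in this count. Genes known only by a sequence name made up 6722 of the protein-coding genes tested, and 204 of them were higher and 155 lower past 2-fold, against 133 and 84 of the 6473 with a gene name. Among the 2142 ncRNA genes tested the median log2 ratio was 0.21, with 606 higher and 452 lower past 2-fold. Of these genes 602 were listed at 0 in one of the groups. Of the 37 tRNA genes tested 26 were at 0 in one of the groups, so their ratios rest largely on the pseudocount and are not read.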
